A study of Mus musculus with 16 samples.

Results

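The SLC25 genes encode the mitochondrial carrier family, the transporters that move metabolites, nucleotides and cofactors across the inner mitochondrial membrane. Members were taken by name, as every gene of the deposited table called Slc25a followed by a number, with the pseudogene Slc25a5-ps left out. This gave 47 of the 45706 genes in the table, of which 39 passed the filter on low counts, among 13792 genes tested. The family was measured in skeletal muscle of Mus musculus, in RNA from QUAD, by polyA RNA sequencing. The 8 KO libraries came from mice lacking Nampt in skeletal muscle only. Nampt is the enzyme that makes nicotinamide mononucleotide in the salvage route to NAD. The other 8 libraries came from wild-type (WT) mice. The labels name no driver of the deletion and no age or sex. The labels list 16 separate samples but do not say that each is a separate animal, so p-values here rest on the spread among samples, which may be technical.

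Most carriers exchange one substrate for another, and in muscle the ADP/ATP carriers bring ADP in and send ATP out to the contracting fibre. The aspartate/glutamate and oxoglutarate carriers are parts of the malate-aspartate shuttle, which passes reducing equivalents from cytosolic NADH into mitochondria because NADH itself does not cross the membrane. Slc25a51 is the mammalian carrier that brings NAD into mitochondria.

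Total estimated counts ran between 16065394 and 51881258 per library. Nampt, the targeted gene, averaged 73.4 ± 9.30 CPM (estimated counts per 1e6 of the library's TMM-scaled total) in KO libraries, with a range of 60.4 to 88.7, and 141.4 ± 12.0 CPM in WT libraries, with a range of 125.5 to 161.1 (SD, n = 8 each). On the log2 scale it differed by -0.95 (SE 0.07, edgeR quasi-likelihood test, adjusted p = 9.68e-07), and the groups did not overlap. In bulk tissue, fewer cells of a type and less RNA per cell cannot be told apart. Of the skeletal muscle markers Acta1, Ckm, Mb, Des and Ryr1, all 5 stood at or above 1138 CPM in every library. The 7SL RNA Rn7s1, which is not polyadenylated, ran from 130.6 to 240.8 CPM in KO libraries 1, 3, 5 and 8, from 9.10 to 34.8 CPM in KO libraries 2, 4, 6 and 7, and from 8.47 to 100.3 CPM in WT libraries. The highest WT values were 61.3 CPM in WT library 2 and 100.3 CPM in WT library 8.

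Some carriers resemble each other closely and the reads were 52 bases long, so the stretches below show how far the main isoforms can be told apart. They are coding sequence from GENCODE vM21, genome build GRCm38. Slc25a4 lies on chr8:46206797-46211284 (minus strand) and Slc25a5 on chrX:36795651-36798807 (plus strand), and both stretches cover coding bases 302 to 361. Gm5560, a processed copy of Slc25a5, lies on chr5:97264828-97265719 (plus strand). Capitals mark the bases that differ from Slc25a4.
Slc25a4: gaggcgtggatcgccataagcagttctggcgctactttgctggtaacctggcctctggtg
Slc25a5: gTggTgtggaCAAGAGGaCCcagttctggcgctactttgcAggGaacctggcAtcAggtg
Gm5560: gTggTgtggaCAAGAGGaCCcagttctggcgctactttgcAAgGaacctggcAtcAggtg
Over their aligned coding sequences Slc25a4 and Slc25a5 were identical at 692 of 894 bases (77.4%), and the longest identical run was 20 bases, shorter than a read. Slc25a5 and Gm5560 were identical at 98.1% of 892 bases with a run of 145 bases. Of the 52-base words of Slc25a5, 44.7% also occur in another gene, against 0% for Slc25a4. For reads from these shared words, the split between Gm5560 and Slc25a5 is uncertain. As counted, Gm5560 averaged 0.0735 CPM in KO libraries and 0.0712 CPM in WT libraries. Slc25a5 averaged 25.2 ± 2.83 CPM in KO and 24.5 ± 2.76 CPM in WT libraries.

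The aspartate/glutamate carriers are shown for the same reason. Slc25a12 lies on chr2:71271063-71367749 (minus strand) and is given for coding bases 1133 to 1192. Slc25a13 lies on chr6:6041218-6217173 (minus strand) and is given for coding bases 1142 to 1201. Capitals mark the bases of Slc25a13 that differ from Slc25a12.
Slc25a12: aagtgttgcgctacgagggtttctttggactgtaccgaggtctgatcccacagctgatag
Slc25a13: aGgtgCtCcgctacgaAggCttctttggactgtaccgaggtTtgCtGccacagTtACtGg
The aligned coding sequences were identical at 72.1% of bases, with a longest identical run of 21 bases, so their reads can be told apart.

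The family was dominated by 1 gene. Slc25a4, the ADP/ATP carrier of heart and skeletal muscle, ran from 2579 to 2994 CPM (median 2707) in KO libraries and from 2583 to 2997 CPM (median 2894) in WT libraries. It made up 60.8% ± 0.586 of all SLC25 CPM in KO libraries and 61.4% ± 1.21 in WT libraries. The whole family took 0.453% ± 0.0220 of the unscaled estimated counts in KO libraries and 0.461% ± 0.0134 in WT libraries (SD, n = 8 each). The 4 most abundant members, by CPM per kb of annotated exon, were Slc25a4, Slc25a3, Slc25a11 and Slc25a12, and held 86.5% ± 0.651 of the family's CPM in KO libraries and 86.3% ± 1.08 in WT libraries.

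Per kb of exon, Slc25a4 stood at 1166 ± 54.6 CPM per kb in KO libraries and 1210 ± 58.4 in WT libraries. Slc25a3, the phosphate carrier, followed at 96.5 ± 4.63 in KO and 96.5 ± 3.01 in WT libraries. Slc25a11, the oxoglutarate carrier, stood at 85.7 ± 5.33 in KO and 83.7 ± 3.26 in WT libraries. Slc25a12, the aspartate/glutamate carrier of muscle and brain, stood at 60.3 ± 1.69 in KO and 60.7 ± 2.95 in WT libraries. Each of these means lay further from its neighbour than its own SD. Below them came Slc25a5, the ADP/ATP carrier of many proliferating tissues, at 15.3 ± 1.72 in KO and 14.9 ± 1.67 in WT libraries. Slc25a39, a glutathione carrier, was at 14.8 ± 0.537 in KO and 15.4 ± 0.818 in WT libraries, within 1 SD of Slc25a5. Slc25a51 was at 12.8 ± 0.681 in KO and 13.2 ± 0.457 in WT libraries. Slc25a20, the carnitine/acylcarnitine carrier, was at 9.89 ± 1.48 in KO and 10.1 ± 1.64 in WT libraries, and Slc25a44, which carries branched-chain amino acids, lay within that spread at 8.98 ± 0.653 in KO and 9.21 ± 0.790 in WT libraries. Slc25a46, an outer-membrane member linked to mitochondrial shape, closed the first 10 at 7.89 ± 0.641 in KO and 7.87 ± 0.475 in WT libraries. With the longest coding transcript as length, Slc25a28 and Slc25a42 took the places of Slc25a44 and Slc25a46 among the first 10. On that length Slc25a3 stood at 332.3 CPM per kb in both KO and WT libraries. Slc25a11 stood at 106.1 in KO and 103.8 in WT libraries, so the spacing between carriers depends on the length used.

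**Figure D1:**
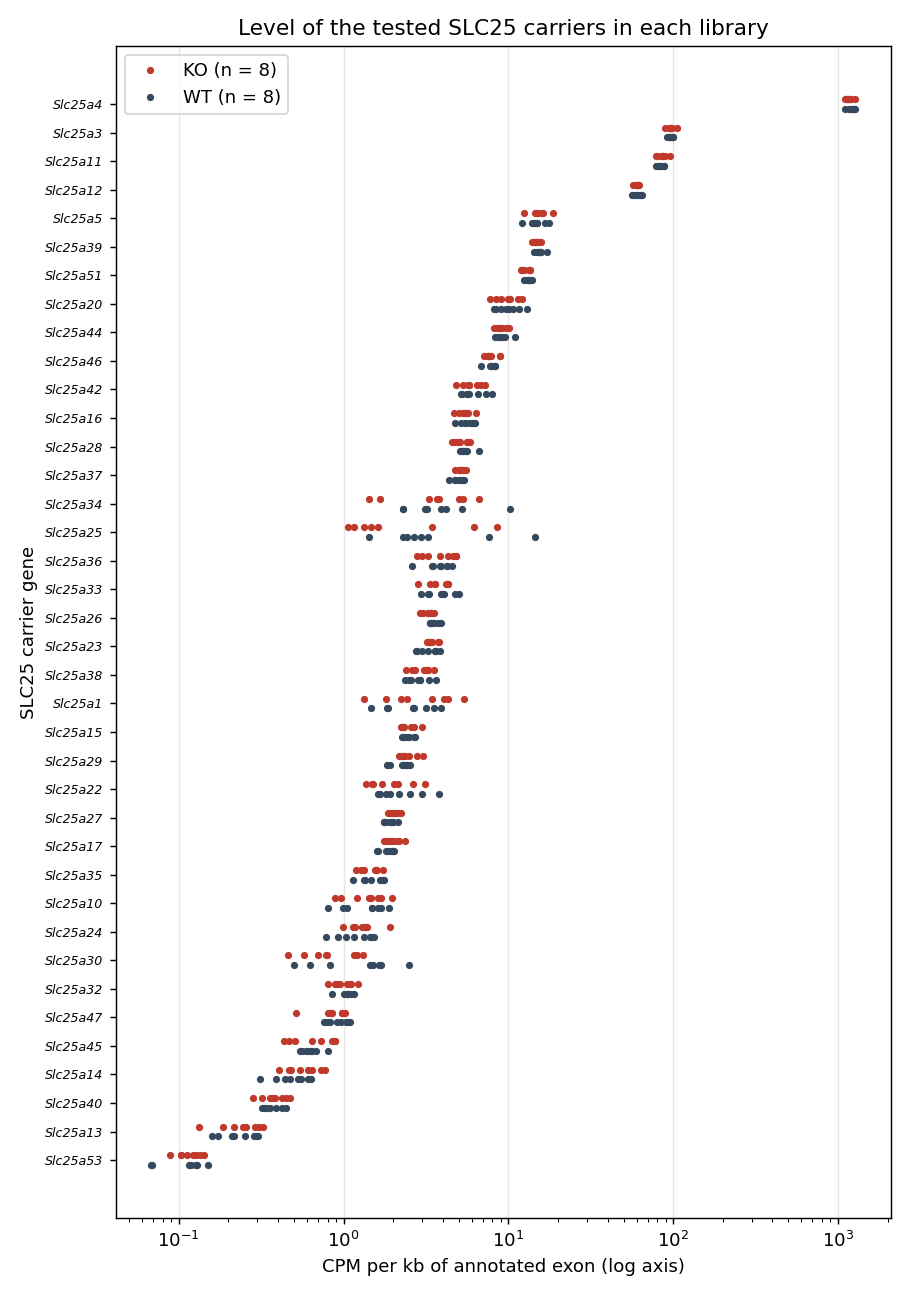
Level of 38 of the tested carriers, in CPM per kb of annotated exon on a log axis, with 1 point per library and KO above WT for each gene. Slc25a4 stands alone near 1166 in KO and 1210 in WT libraries, and the KO and WT points overlap for each of the 38 genes.

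The 8 members that were not tested had at most 7 estimated counts in any library: Slc25a2, Slc25a18, Slc25a21, Slc25a31, Slc25a41, Slc25a43, Slc25a48 and Slc25a54. Slc25a54 had 0 counts in all 16 libraries, which allows up to 0.00672 counts per 1e6 unscaled counts over the libraries together (3 counts, counting error only). Slc25a31, the ADP/ATP carrier of the testis, had at most 1 estimated count in any library.

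No SLC25 member passed the test between KO and WT muscle. Of the 39 tested members 0 were called at an adjusted p of 0.05 with edgeR, beside 6 of 13792 genes in the whole table (0.0435%). DESeq2 called 0 of the 24 members to which it gave an adjusted p, beside 102 of 7909 genes (1.29%), and limma-voom called 0 of 39 (0.0363% of all genes). At an unadjusted p of 0.05 edgeR named 2 of 39 members, beside 9.57% of all genes. Both were lower in KO (5.55% of all genes were named in that direction) and 0 were higher (4.02% of all genes). No member had KO and WT libraries that did not overlap, beside 0.123% of all genes. The median log2 fold change was 0.00 over the members and 0.00 over all tested genes, with 20 members above 0 and 19 below. The 95% interval lay inside a 1.1-fold change for 5 of 39 members (13.8% of all genes) and inside a 1.5-fold change for 34 (86.2% of all genes). The 5 members with intervals beyond 1.5-fold were Slc25a25, Slc25a30, Slc25a34, Slc25a1 and Slc25a22.

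**Figure D2:**
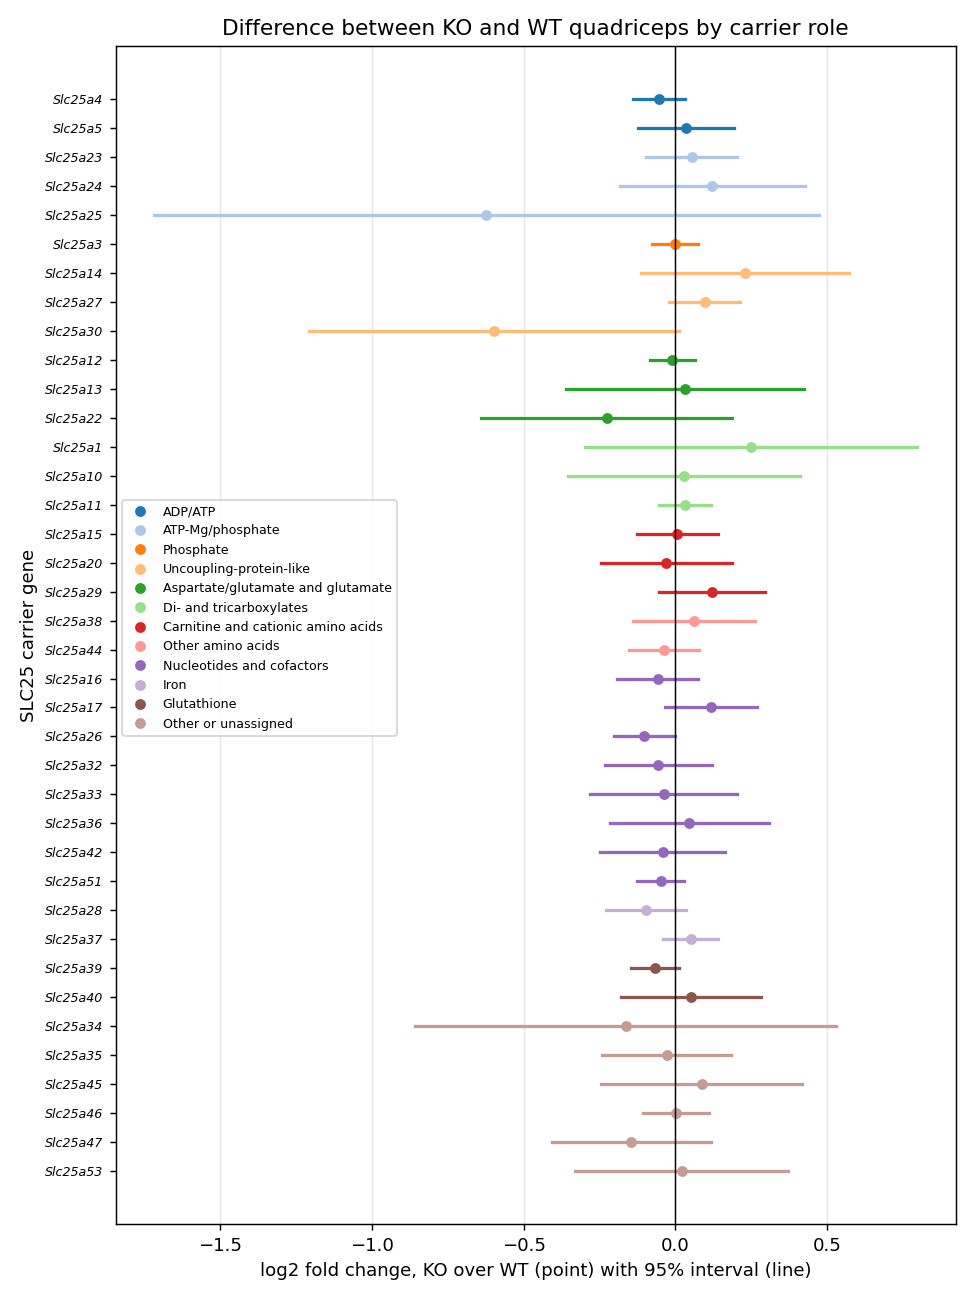
Log2 fold change of KO over WT with its 95% interval for 38 of the tested carriers, coloured and ordered by carrier role. Points run from -0.62 for Slc25a25 to 0.25 for Slc25a1, and the wide intervals belong to a few variable genes.

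Slc25a51, the NAD carrier on chr4:45395923-45408766 (minus strand), ran from 65.4 to 74.8 CPM (median 71.0) in KO libraries and from 68.9 to 76.9 CPM (median 73.0) in WT libraries. The ranges overlapped over most of their width, and 4 KO libraries exceeded the WT mean. The log2 fold change was -0.05 (SE 0.04, 95% interval -0.12 to 0.03, edgeR adjusted p = 0.738). This interval bounds a difference of the transcript and says nothing of the amount of NAD carried. Its coefficient of variation was 5.31% in KO and 3.45% in WT libraries. In WT libraries the 3 tested members with the smallest values were Slc25a3 (3.12%), Slc25a51 and Slc25a11 (3.90%). In KO libraries Slc25a12 (2.80%), Slc25a39 (3.64%), Slc25a37 (4.51%), Slc25a4 (4.68%) and Slc25a3 (4.80%) were below Slc25a51. The members most like it, by Spearman correlation of log2 CPM after each genotype mean was subtracted, were Slc25a39 (rho 0.42), Slc25a32 (rho 0.37) and Slc25a53 (rho 0.31) over 16 libraries. These 3 correlations did not pass the permutation test after adjustment over 741 pairs.

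The adenine nucleotide and phosphate carriers gave the same picture. Slc25a4 differed by -0.05 on the log2 scale (SE 0.04, interval -0.14 to 0.03) and 1 KO library exceeded the WT mean. Slc25a5 differed by 0.04 (SE 0.07) and Slc25a3 by 0.00 (SE 0.04). Slc25a4 made up 98.7% ± 0.131 of the ADP/ATP carrier level per kb in KO libraries and 98.8% ± 0.180 in WT libraries. Of the 3 tested ATP-Mg/phosphate carriers, which exchange ATP-Mg for phosphate under control of calcium, 0 were called, beside 0.0435% of all genes.

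Within the malate-aspartate shuttle, Slc25a12 ran from 416.7 to 457.0 CPM (median 445.7) in KO libraries and from 411.9 to 472.6 CPM (median 448.0) in WT libraries, with a log2 fold change of -0.01 (SE 0.04). It made up 99.6% of the level per kb that it shared with Slc25a13 in both groups. Slc25a13, the liver-type aspartate/glutamate carrier, averaged 0.930 ± 0.246 CPM in KO and 0.899 ± 0.210 CPM in WT libraries. Slc25a11 differed by 0.03 (SE 0.04). The 6 listed NADH shuttle enzymes were Got1, Got2, Mdh1 and Mdh2 of this shuttle and Gpd1 and Gpd2 of the glycerol phosphate shuttle. Of these 6, 0 were called, beside 0.0435% of all genes, and 0 had an unadjusted p under 0.05 with edgeR, beside 9.57%. Above 0 stood 5 of the 6, beside 7146 of all 13792 tested genes. Gpd2, the mitochondrial glycerol phosphate dehydrogenase, averaged 209.0 ± 15.2 CPM in KO and 194.4 ± 13.8 CPM in WT libraries (log2 fold change 0.10, edgeR adjusted p = 0.544).

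Among the 9 nucleotide and cofactor carriers 0 were called, beside 0.0435% of all genes. Of these 9, 7 stood below 0 and 2 above, beside 6646 below and 7146 above among all 13792 tested genes. Slc25a26, the S-adenosylmethionine carrier, ran from 14.1 to 17.0 CPM (median 15.9) in KO libraries and from 16.0 to 18.8 CPM (median 16.4) in WT libraries. Its log2 fold change was -0.10 (SE 0.05, edgeR unadjusted p = 0.0468, adjusted p = 0.511). It had 1 KO library above the WT mean, and the KO and WT ranges overlapped. Exons of Slc25a26 overlap those of Lrig1 on the opposite strand over 144 bases, and no source used here gives the strand setting of the counting. The same limit holds for other members, among them Slc25a11 (189 bases of opposite-strand overlap), Slc25a10 (228 bases), Slc25a25 (379 bases) and Slc25a37 (473 bases). Lrig1 averaged 82.8 ± 7.65 CPM in KO and 92.3 ± 5.91 CPM in WT libraries (edgeR unadjusted p = 0.0111, adjusted p = 0.342), and its part in the Slc25a26 value was not tested. The folate carrier Slc25a32, the pyrimidine nucleotide carriers Slc25a33 and Slc25a36 and the coenzyme A carrier Slc25a42 differed by -0.06, -0.04, 0.05 and -0.04 on the log2 scale, each less than its SE.

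The 2 iron carriers, Slc25a37 (mitoferrin of erythroid cells) and Slc25a28 (its widely expressed relative), differed by 0.05 (SE 0.04) and -0.10 (SE 0.06). The carnitine/acylcarnitine carrier Slc25a20 ran from 37.5 to 58.8 CPM (median 48.6) in KO and from 39.5 to 62.8 CPM (median 48.2) in WT libraries, with a log2 fold change of -0.03 (SE 0.10). All 4 listed carnitine shuttle enzymes stood below 0, beside 6646 of all 13792 tested genes, and Cpt1a was at -0.0016 (SE 0.21). Of these 4, 0 were called, beside 0.0435% of all genes. An unadjusted p under 0.05 with edgeR was found for 0 of them, beside 9.57% of all genes.

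The import machinery that inserts carriers into the inner membrane was listed with 11 genes. Of these 10 were tested and 0 were called, beside 0.0435% of all genes. Only 1 of the 10 had an unadjusted p under 0.05 with edgeR, beside 9.57% of all genes. This was Timm22, the pore of the carrier translocase. It averaged 17.9 ± 1.76 CPM in KO and 19.6 ± 1.23 CPM in WT libraries (log2 fold change -0.14, edgeR unadjusted p = 0.0288, adjusted p = 0.453). Of the 9 listed genes of the pyruvate carrier, porins and calcium uniporter 0 were called, and 1 had an unadjusted p under 0.05, beside the same shares. This was Vdac2, an outer membrane porin. It averaged 186.3 ± 7.76 CPM in KO and 198.8 ± 8.14 CPM in WT libraries (log2 fold change -0.09, edgeR unadjusted p = 0.0161, adjusted p = 0.385). Of 5 genes of ATP use and mitochondrial content, among them citrate synthase (Cs), 0 were called, beside the same 0.0435%.

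A few carriers varied several fold between libraries of the same genotype. Slc25a25, a calcium-dependent ATP-Mg/phosphate carrier, had the largest spread among the 39 tested members, with a coefficient of variation of 90.2% in KO and 95.02% in WT libraries. It stood at 12.7, 66.6, 11.5, 27.1, 10.4, 9.10, 48.6 and 8.42 CPM in KO libraries 1 to 8, and at 23.1, 11.2, 114.4, 25.5, 18.0, 21.1, 59.8 and 19.1 CPM in WT libraries 1 to 8. KO libraries 2 and 7 and WT libraries 3 and 7 stood apart as high. This split and the limits below were set after these values were seen, so they are a description and no test. Of the remaining libraries, every KO library but 1 was at or below 12.7 CPM. Every remaining WT library but 1 was at or above 18.0 CPM. The exceptions were the KO library at 27.1 CPM and the WT library at 11.2 CPM, so these lower ranges overlapped. Median CPM over all libraries of a genotype was 12.1 for KO and 22.1 for WT. The log2 fold change was -0.62 (SE 0.52, edgeR adjusted p = 0.760). It was -0.09 without WT library 3, -1.01 without KO library 2 and -0.10 with the level of non-polyadenylated RNA as a covariate. Without KO libraries 1, 3, 5 and 8, the KO libraries with high Rn7s1, it was 0.02.

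The promoter of Slc25a25 at 1 of its annotated starts is shown because it holds a cAMP response element, TGACGTCA, given in capitals (RefSeq, GRCm38.p6, chr2:32424067-32424316, minus strand).
Slc25a25: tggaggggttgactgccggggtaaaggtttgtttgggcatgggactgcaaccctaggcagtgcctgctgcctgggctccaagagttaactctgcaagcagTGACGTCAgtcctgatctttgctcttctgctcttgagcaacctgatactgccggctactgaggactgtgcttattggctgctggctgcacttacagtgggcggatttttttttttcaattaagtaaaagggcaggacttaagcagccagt
That element was searched on both strands in the 250 bases before each start and occurred in 2 of the 36 members with a promoter entry (Slc25a25 and Slc25a36) and in 1.77% of 27025 genes. A match describes these letters only.

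Slc25a30, an uncoupling-protein-like carrier, ran from 2.12 to 6.04 CPM (median 3.62) in KO libraries and from 2.29 to 11.4 CPM (median 6.77) in WT libraries. In 0 of 8 KO libraries was it above the WT mean, while WT libraries 3, 7 and 8 lay inside the KO range. The log2 fold change was -0.60 (SE 0.29, edgeR unadjusted p = 0.0548, adjusted p = 0.536). Slc25a34, a carrier with no established substrate, had a coefficient of variation of 46.1% in KO and 59.8% in WT libraries, and Slc25a1, the citrate carrier, 44.8% in KO and 32.9% in WT libraries. Slc25a1 stood at 9.30, 8.82 and 11.7 CPM in KO libraries 1, 3 and 8 and at 3.94 CPM in KO library 5. Its log2 fold change was 0.25 (SE 0.26) and was -0.18 without KO libraries 1, 3, 5 and 8, which are the libraries with high Rn7s1. Over the 39 members the median coefficient of variation was 12.7% in KO and 12.9% in WT libraries, beside 11.1% in KO and 11.4% in WT libraries over all tested genes.

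**Figure D3:**
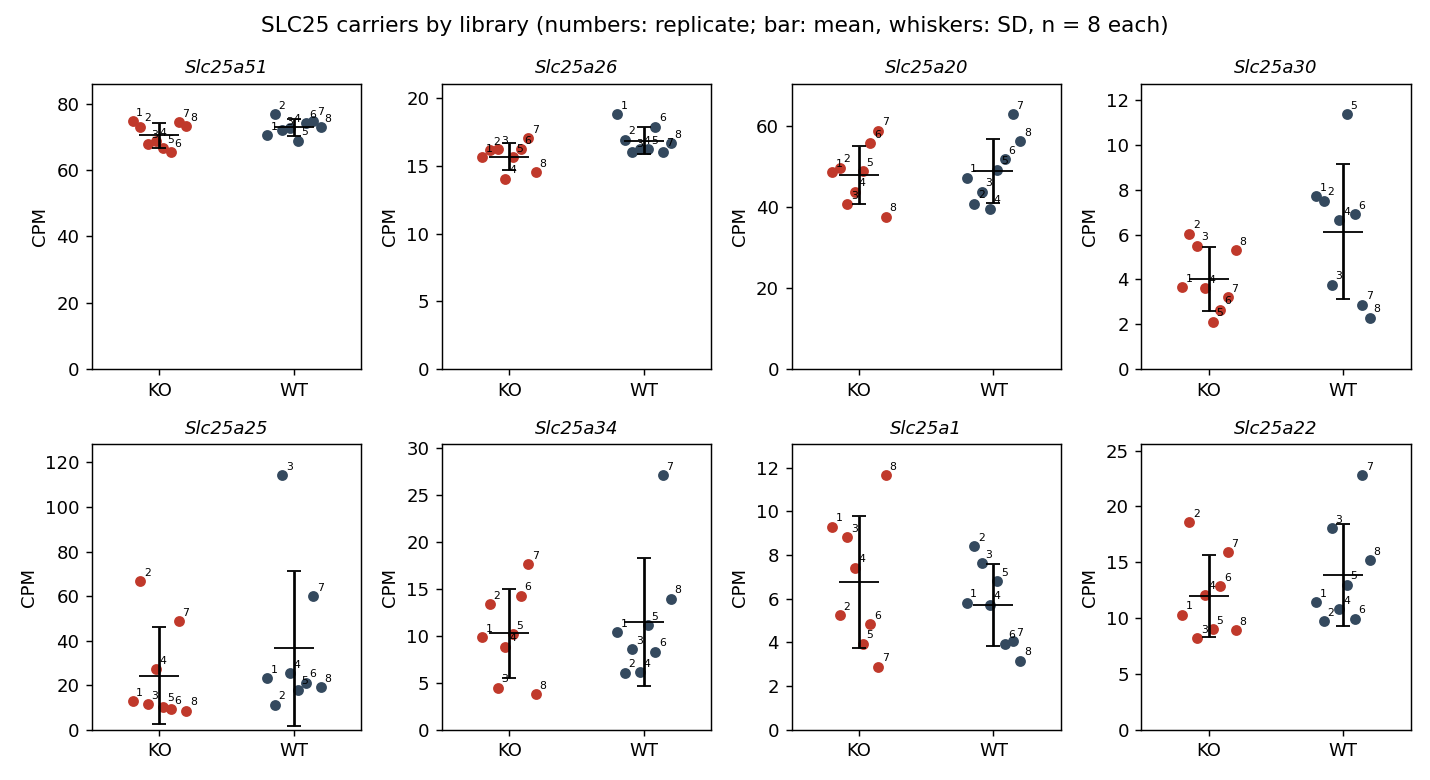
CPM of 8 carriers in each library, KO left of WT, with replicate numbers, the mean (bar) and the SD (whiskers, n = 8 each). Slc25a51 and Slc25a26 are tight, while Slc25a25 ranges up to 66.6 CPM in KO and 114.4 CPM in WT libraries.

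Some pairs of carriers moved together between libraries. Of the 741 pairs of tested members, 12 passed the permutation test by both Pearson and Spearman correlation of log2 CPM (100000 permutations within genotype, two-sided, Benjamini-Hochberg adjusted over all pairs), 10 of them positive and 2 negative. All 12 had the same sign within KO, within WT and without 2 libraries. Those 2 were the farthest from the median of the alphabetically first gene of the pair. The pairs were chosen on these same libraries, so the shared sign is no separate support. The points share libraries and are not independent of depth or tissue make-up. Pairs drawn from all tested genes were not examined, so whether this count is particular to carriers was not tested. The 12 pairs joined 13 members.

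Slc25a10, the dicarboxylate carrier, ran from 3.06 to 6.82 CPM (median 5.01) in KO and from 2.79 to 6.52 CPM (median 5.14) in WT libraries, and its log2 fold change was 0.03 (SE 0.18). It formed the closest pair by Spearman correlation with Slc25a1, the citrate carrier (r = 0.93, rho = 0.92, permutation adjusted p = 0.0037 and 0.0074). The pair gave r = 0.94 within KO, 0.95 within WT and 0.93 without 2 libraries. Their raw p of 1e-05 is the smallest that 100000 permutations can give. The promoters of these genes are shown to compare them, with Slc25a1 on chr16:17928220-17928469 (minus strand) and Slc25a10 on chr11:120491587-120491836 (plus strand). Capitals mark an E-box, CACGTG.
Slc25a1: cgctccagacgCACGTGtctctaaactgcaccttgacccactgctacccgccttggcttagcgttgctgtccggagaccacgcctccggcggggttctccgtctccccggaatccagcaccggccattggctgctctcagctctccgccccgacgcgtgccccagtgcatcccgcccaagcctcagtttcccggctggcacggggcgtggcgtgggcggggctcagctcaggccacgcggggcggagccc
Slc25a10: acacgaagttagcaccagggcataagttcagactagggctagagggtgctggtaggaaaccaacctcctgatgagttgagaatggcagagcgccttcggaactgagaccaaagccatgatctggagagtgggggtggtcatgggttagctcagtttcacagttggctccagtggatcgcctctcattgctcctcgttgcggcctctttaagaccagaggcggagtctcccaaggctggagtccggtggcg
The E-box occurred in Slc25a1 and not in this window of Slc25a10, in 7 of 36 members and in 6.86% of all genes. An ERR response element (TCAAGGTCA), a sterol response element and the PPAR/RXR DR1 element, each searched on both strands, occurred in 0 of 36 members, and in 0.422%, 0.0814% and 0.0407% of all genes.

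Slc25a20 moved with Slc25a34 (r = 0.94, rho = 0.90, adjusted permutation p = 0.0037 and 0.0074), and both moved with Slc25a42. Slc25a22, the glutamate carrier, moved with Slc25a34 (r = 0.79, rho = 0.81). The abundant carriers Slc25a3, Slc25a4 and Slc25a11 formed a second group, with r of 0.83 between Slc25a3 and Slc25a4, 0.88 between Slc25a3 and Slc25a11, and 0.83 between Slc25a4 and Slc25a11. Slc25a15 moved with Slc25a30 (r = 0.75, rho = 0.85) and Slc25a16 with Slc25a23 (r = 0.81, rho = 0.81). The 2 negative pairs set Slc25a20 against Slc25a1 (r = -0.80, rho = -0.79) and against Slc25a10 (r = -0.78, rho = -0.82). When each library was left out in turn, between 3 and 12 pairs passed. Slc25a1 with Slc25a10 and Slc25a20 with Slc25a34 passed in 16 of 16 such repeats, Slc25a3 with Slc25a4 in 14, Slc25a15 with Slc25a30 in 13 and the other 8 pairs in 3 to 7.

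**Figure D4:**
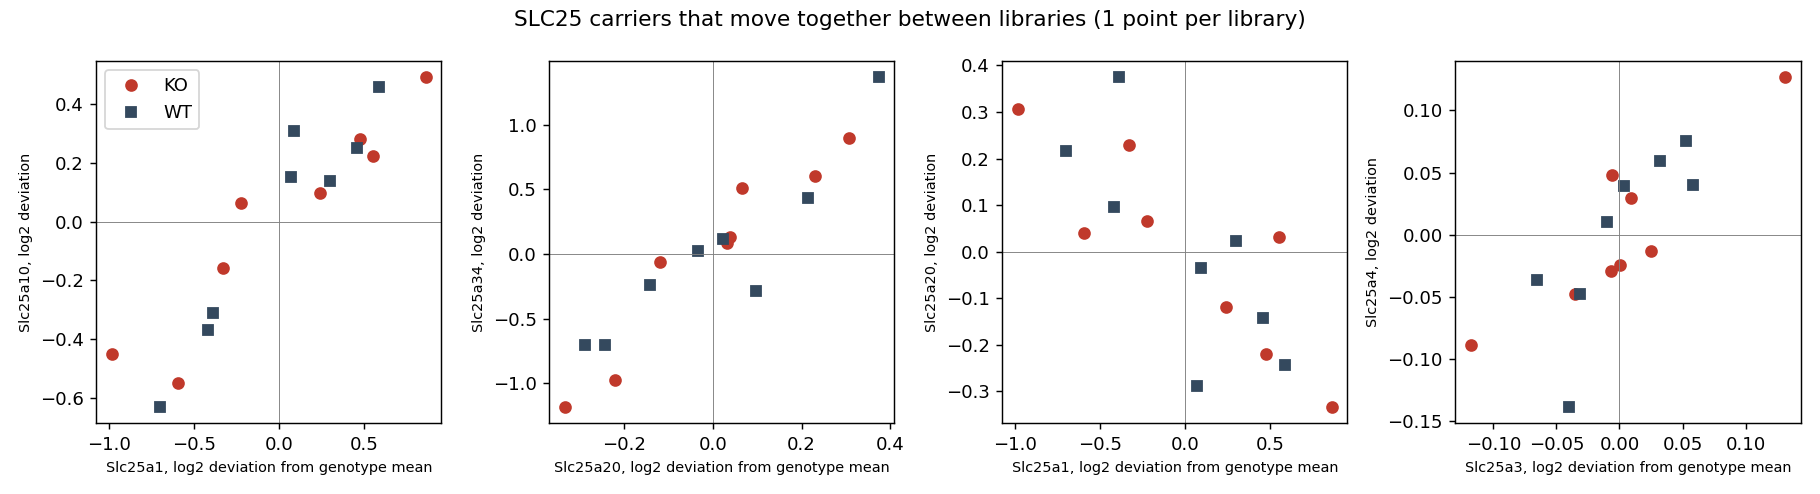
Log2 CPM deviations from the genotype mean for 4 pairs of carriers, with 1 point per library (KO circles, WT squares). Slc25a1 rises with Slc25a10, Slc25a20 with Slc25a34 and Slc25a3 with Slc25a4, while Slc25a20 is low where Slc25a1 is high.

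Among 1755 pairs of a member with 45 partners (the listed pathway genes and sums of cell type markers), 9 passed the same test adjusted over those pairs. For this count too, no share over pairs of all genes was computed. These 9 pairs were also chosen on these same libraries, and their test was not repeated with each library left out. Slc25a20 moved with Cpt1b (r = 0.90, rho = 0.91) and Cpt2 (r = 0.87, rho = 0.91), the enzymes on either side of it in the carnitine shuttle, and with Vdac1 (r = 0.81, rho = 0.82). Slc25a4 moved with Ckmt2, the mitochondrial creatine kinase (r = 0.90, rho = 0.86). Slc25a34 moved with Cpt1b (r = 0.82, rho = 0.82, permutation adjusted p = 0.0335 and 0.0468) and Atp5a1 (r = 0.85, rho = 0.85). The sum of 5 macrophage markers ran from 56.4 to 131.7 CPM in KO and from 59.8 to 131.2 CPM in WT libraries. It correlated with Slc25a20 at r = -0.79 (permutation adjusted p = 0.0497) and rho = -0.73 (adjusted p = 0.161), with Slc25a34 at r = -0.68 (rho = -0.64) and with Slc25a1 at r = 0.71 (rho = 0.59). With Slc25a24 the macrophage sum gave r = 0.75 (permutation adjusted p = 0.0794) and rho = 0.71 (adjusted p = 0.193), and with Slc25a10 r = 0.68 (rho = 0.51). The sum of 5 endothelial markers correlated with Slc25a20 at r = 0.76 (permutation adjusted p = 0.0752) and rho = 0.72 (adjusted p = 0.161). It correlated with Slc25a34 at r = 0.73 (permutation adjusted p = 0.0752) and rho = 0.77 (adjusted p = 0.0671), with Slc25a1 at r = -0.57 (rho = -0.53) and with Slc25a24 at r = -0.67 (rho = -0.76). No pair with either sum passed by both measures, and the part of these cell types in the carrier pairs was not tested.

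Of the 7 cell type marker lists 0 genes were called, beside 0.0435% of all genes. The 8 slow-fibre markers had sums of 539.7 to 951.8 CPM in KO libraries and 243.4 to 973.7 CPM in WT libraries. All 8 log2 fold changes were above 0, but 0 had an unadjusted p under 0.05 with edgeR. Over all 13792 tested genes, 7146 stood above 0 and 6646 below. Of the 8 fast-fibre markers 7 had a log2 fold change below 0, and 2 had an unadjusted p under 0.05 with edgeR, beside 9.57% of all genes. These were Actn3 (log2 fold change -0.19, edgeR unadjusted p = 0.00586, adjusted p = 0.296) and Tnni2 (log2 fold change -0.09, unadjusted p = 0.0431, adjusted p = 0.497). The 5 endothelial markers had sums of 226.5 to 262.7 CPM in KO libraries and 201.3 to 235.1 CPM in WT libraries, all 5 log2 fold changes were above 0, and 3 had an unadjusted p under 0.05, beside the same 9.57% of all genes. Adipocyte and erythroid marker sums overlapped throughout, at 109.3 to 154.4 CPM in KO and 108.9 to 163.3 CPM in WT libraries, and at 169.0 to 260.7 CPM in KO and 100.3 to 332.0 CPM in WT libraries. No listed marker was at 0 in all libraries.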

How the data were processed

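Skeletal muscle RNA from 8 KO and 8 WT samples was made into polyA libraries and read as 52-base pairs on a NovaSeq, per the labels' protocols. The authors deposited estimated counts per gene; per the submitters' processing notes the tools were bcl2fastq 4.0.3, STAR and Salmon with build GRCm38 (no source used here gives the versions of STAR and Salmon). Of the deposited values, 11.1% were not whole numbers, and they were rounded before testing. No column was left unmatched to a sample.

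Counts were tested with edgeR 4.0.16 in R 4.3.3 (TMM, filterByExpr, quasi-likelihood F test, no covariates), with Benjamini-Hochberg adjustment over 13792 genes at 0.05. The filter removed 0.0705% of counts. DESeq2 1.42.0 and limma 3.58.1 were alternatives. CPM used TMM-scaled totals of the tested genes, a pseudocount of 0.5 CPM was used for log2 values in correlations, and lengths, overlaps and 52-base words came from GENCODE vM21. Python 3.11.15 did the rest. The code was tested on simulated data. Replicates in either group differed by more than sampling noise (lowest chi-square per degree of freedom 8.09 in KO and 9.42 in WT). Counting error is small for abundant carriers and large for those near the filter.

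Members and gene lists were chosen with earlier results of these data known. Named genes were those called or with an unadjusted p under 0.05, the 10 highest per kb, a list of carriers fixed for their roles, the 3 most and 3 least variable in WT and the 3 most like Slc25a51; Slc25a22, Slc25a16, Slc25a23 and other members of passing pairs, and the overlapping gene Lrig1, were named after their values were seen. Alternatives were other scalings, filters and tools, a replicate block, RIN, histone and non-polyadenylated RNA covariates, 4 KO libraries left out, and each library left out. The non-polyadenylated RNA covariate, the longest-transcript lengths and the repeats of the pair test were chosen after seeing the data. The values of 1 tested member are not reported here, though it is included in the counts.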

Additional observations from a re-analysis of the deposited data

Results flagged for a closer look

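Among 78 groups of 8 libraries, 1 for each tested member and genotype, 4 held a library whose gap to its nearest neighbour was large for the range of the group; chance alone gives such a gap in about 1 group in 20. Slc25a47 was lowest in KO library 3, at 1.53 CPM with the next library at 2.41 CPM, a gap of 0.644 of the range. Slc25a28 was highest in WT library 8, at 25.0 CPM with the next at 21.0 CPM (0.643 of the range). Slc25a46 was lowest in WT library 3, at 37.1 CPM with the next at 41.9 CPM (0.615 of the range), and Slc25a32 was lowest in the same library, at 5.18 CPM with the next at 6.11 CPM (0.544 of the range).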

How the results depend on the processing

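The count of SLC25 members called was 0 under all 28 alternatives. Of the 1090 member values compared, 0 changed sides of the threshold, and 18 members kept their sign throughout. By comparison with the gene's SD of log2 CPM within genotype, 0 moved by more. That SD describes single libraries and is not the error of the fold change. Some moves exceeded the SE: without KO libraries 1, 3, 5 and 8, Slc25a1 went from 0.25 (SE 0.26) to -0.18. Slc25a25 went from -0.62 (SE 0.52) to 0.02 in the same setting. The largest moves were 0.64 log2 without KO libraries 1, 3, 5 and 8, where 12 members changed sign, 0.53 without WT library 3 and 0.53 with the non-polyadenylated RNA covariate. The number of members with an unadjusted p under 0.05 was between 0 and 4. The Nampt log2 fold change stayed between -0.99 and -0.91. Over all genes 6 were called in the reported test, 102 with DESeq2, 2 with RLE scaling, 2 with library totals, 3 with no filter, 2 with the non-polyadenylated RNA covariate and 2 without those 4 KO libraries; leaving out 1 library gave between 2 and 8, with the cause not tested. Same-numbered libraries correlated between -0.098 and 0.237, which shows no clear pairing by number. Weak correlation cannot exclude a pairing in the design. With the replicate block 2 genes and 0 members were called, and only numbers 1 and 4 matched best with their own number. With 1 library left out, between 3 and 12 pairs of members passed, of which between 3 and 11 were among the 12 reported pairs. Depth limits the 8 members that were not tested.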

Other observations

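The relatives of the family that carry other names gave 3 further pairs that passed the test over 1755 pairs. Ucp3, the uncoupling protein of skeletal muscle, averaged 95.02 ± 39.0 CPM in KO and 132.1 ± 70.8 CPM in WT libraries (log2 fold change -0.48, edgeR adjusted p = 0.633). It moved with Slc25a22 (r = 0.88, rho = 0.87) and against Slc25a23 (r = -0.77, rho = -0.76, permutation adjusted p = 0.0276 and 0.0468). Ucp2, its relative in immune and other cells, averaged 14.7 ± 3.61 CPM in KO and 13.1 ± 2.81 CPM in WT libraries and moved against Slc25a44 (r = -0.81, rho = -0.86). Mtch1 and Mtch2, outer-membrane relatives, averaged 38.7 ± 1.73 and 89.2 ± 2.07 CPM in KO libraries and 38.1 ± 1.20 and 87.9 ± 3.01 CPM in WT libraries.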
